A study of Mus musculus with 30 samples.

Results

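The light chain variable (V) segments are the germline genes that supply most of the variable domain of the antibody light chain, and their use was followed here in platelets and in peripheral blood mononuclear cells (PBMC) of mice injected with melanoma cells. Every gene with a symbol that begins with Igkv or Iglv was taken, which gave 163 of the 54532 genes counted. Of these, 160 were kappa segments on chromosome 6 and 3 were lambda segments on chromosome 16 (Iglv1, Iglv2 and Iglv3). The annotation lists 103 of the 163 as functional V genes (100 kappa and 3 lambda) and 60, all kappa, as V pseudogenes. The members were chosen by name.

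Female C57BL/6 mice, aged 6 to 8 weeks at the start, were injected under the skin of the right flank with 100 µl of HBSS, a salt solution, and blood was drawn on day 14 in all groups. Mice of the C group (the ctrl columns) received HBSS alone, mice of the S group (early tumor) received 2000 B16F10 cells, and mice of the O group (large tumor) received 100000 B16F10 cells, a melanoma line of C57BL/6 origin. The S group had no visible tumor at collection and, since few animals given this dose go on to form one, its pools also hold mice that might have stayed free of tumor. RNA of 3 to 10 mice by the labels was pooled into each library, with 5 pools per group and tissue (30 libraries). In the O group a pool held 3 to 5 mice and in PBMC of the C and S groups 4 or 5. Platelet pools held 10 mice in the S group, and 10, 5, 5, 10 and 10 in C group pools 1 to 5, so that averaging over animals differed between groups. Platelets were collected by centrifugation of platelet-rich plasma, and the PBMC came from the lower layer of the same blood, with no step stated that removes leukocytes from the platelets.

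A B cell builds its light chain gene by joining a V segment to a joining (J) segment, and the joined exon is spliced to a constant gene, Igkc for kappa and Iglc1, Iglc2 or Iglc3 for lambda. Most mouse B cells carry kappa light chains. RNA read from a V segment therefore comes chiefly from B cells and plasma cells that chose that segment, so the spread of reads over segments describes a repertoire. In bulk RNA, fewer B cells and less light chain RNA per B cell cannot be told apart.

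The germline ends below belong to the segments that the results turn on: the most used kappa segments, the lambda segments and Igkv2-109, which had the smallest P among members in both platelet comparisons of the S group. They come from the GENCODE M21 transcripts on GRCm38, coding strand, 5′ to 3′, and the capitals mark the codon of the conserved second cysteine, after which the antigen-binding loop CDR3 begins. The codon was found in 103 of the 103 functional members, with 18 to 37 bases after it (median 23).
Igkv1-117: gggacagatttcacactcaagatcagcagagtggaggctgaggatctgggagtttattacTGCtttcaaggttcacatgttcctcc
Igkv1-110: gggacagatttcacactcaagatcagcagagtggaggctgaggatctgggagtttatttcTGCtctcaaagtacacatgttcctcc
Igkv1-135: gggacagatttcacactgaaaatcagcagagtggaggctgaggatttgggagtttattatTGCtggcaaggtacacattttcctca
Igkv6-17: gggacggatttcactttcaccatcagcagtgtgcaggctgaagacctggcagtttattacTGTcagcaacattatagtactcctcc
Igkv10-96: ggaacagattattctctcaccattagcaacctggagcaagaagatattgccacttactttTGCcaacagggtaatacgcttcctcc
Igkv2-109: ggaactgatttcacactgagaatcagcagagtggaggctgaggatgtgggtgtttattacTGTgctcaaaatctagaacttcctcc
Iglv3: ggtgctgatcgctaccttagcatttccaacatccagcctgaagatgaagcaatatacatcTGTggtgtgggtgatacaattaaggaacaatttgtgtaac

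On GRCm38 these genes lie at chr6:68121046-68121827 (Igkv1-117, plus strand), chr6:68270485-68271267 (Igkv1-110, plus), chr6:67609713-67610508 (Igkv1-135, plus), chr6:70371439-70371993 (Igkv6-17, plus), chr6:68631963-68632442 (Igkv10-96, minus), chr6:68302427-68303158 (Igkv2-109, plus) and chr16:19241207-19241690 (Iglv3, minus). Igkv1-117 and Igkv1-110 were 97.2% identical over their coding bases. Of the functional members, 51 had another member at 95% identity or more, and these held 58.7% of PBMC usage and 59.8% of platelet usage. How the counting treated reads that match several segments is not given in the sources used here, so the split between such neighbours is uncertain.

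The lambda pair shows how close neighbours can be. Iglv1 (chr16:19085017-19085500, minus strand) and Iglv2 (chr16:19260401-19260859, minus strand) differed at 6 of their last 240 coding bases (97.5% identity), and the capitals mark these 6 bases.
Iglv1: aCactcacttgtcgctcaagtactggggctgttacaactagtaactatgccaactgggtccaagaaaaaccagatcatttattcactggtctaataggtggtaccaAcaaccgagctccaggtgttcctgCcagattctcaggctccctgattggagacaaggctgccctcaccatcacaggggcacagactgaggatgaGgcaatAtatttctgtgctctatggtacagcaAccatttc
Iglv2: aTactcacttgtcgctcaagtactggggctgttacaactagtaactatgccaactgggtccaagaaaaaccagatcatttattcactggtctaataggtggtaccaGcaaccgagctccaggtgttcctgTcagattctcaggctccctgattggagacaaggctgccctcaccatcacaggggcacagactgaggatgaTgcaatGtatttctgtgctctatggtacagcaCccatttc

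The libraries held 13390983 to 15973449 counts in PBMC and 12259036 to 25360080 in platelets. Light chain V segments took 2852 to 9662 of these in PBMC but 444 (O group pool 1) to 5470 (S group pool 5) in platelets, so single segments were measured less precisely in platelets. PBMC pool 3 of the S group had counts on 32900 genes, against 20540 to 22991 in the other PBMC libraries. Hemoglobin genes took 6.52% to 24.5% of counts in PBMC of the O group and 3.29% to 9.39% in the C group. The 13 B cell marker genes (such as Cd79a and Ms4a1) were all counted, and their summed level in CPM (counts scaled to library size by TMM within a tissue) was 2964 to 4034 in PBMC of the C group, 3206 to 4373 in the S group and 2525 to 4135 in the O group. On the scale of the platelet libraries it was 844 to 982 in the C group, 875 to 1752 in the S group and 484 to 940 in the O group, so B cell RNA was present in the platelet preparations and had its lowest mean in the O group (722 ± 199 CPM, SD, n = 5, against 923 ± 54.7 in the C group).

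Nearly all functional segments were seen. In PBMC 103 of the 103 functional members had counts, 87 of them in all 15 libraries, and the 60 pseudogenes took 1.20% of V counts. In platelets 102 of 103 had counts, 48 of them in all 15 libraries, and pseudogenes took 1.72%. The 16 members with no count in any of the 30 libraries were all pseudogenes.

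Usage of a segment was defined as its count divided by its annotated exon length, as a percentage of the sum of this value over the 163 members in the same library. In PBMC the most used segments were Igkv1-117 (5.91% ± 0.65, SD over 15 libraries), Iglv1 (5.54% ± 0.731) and Iglv3 (5.43%). Igkv10-96 (3.78%), Igkv1-110 (3.70%), Iglv2 (3.42%) and Igkv1-135 (3.35%) came next, and Igkv6-15, Igkv6-17 and Igkv19-93 lay between 2.53% and 2.91%. Usage was spread widely: 36 segments had at least 1%, and 15 segments made up 50% of the total.

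The platelet order was close to that of PBMC. Iglv1 came first with 8.44% ± 2.39 (SD over 15 libraries), followed by Iglv3 (5.47%), Igkv1-117 (4.70%), Iglv2 (4.53%), Igkv6-17 (3.81%) and Igkv1-135 (3.79%). Of the 10 most used segments, 9 were shared between the tissues, with Igkv6-23 (2.75%) in place of Igkv19-93. Across the 163 segments, mean usage in the tissues had a Pearson's r of 0.960 and a Spearman's rho of 0.973. This is a description across genes, which are not independent replicates, and the points share the read mapping and can share mice.

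**Figure D1:**
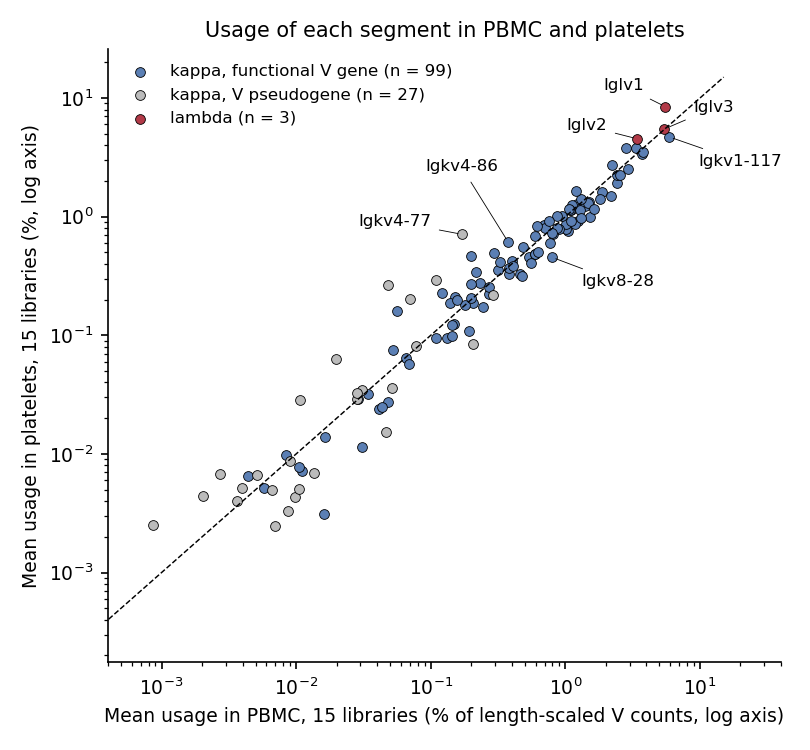
Mean usage of each segment over 15 PBMC libraries (x axis) and 15 platelet libraries (y axis), in % of length-scaled V counts on log axes, for the segments with counts in both tissues, where the dashed line marks equal usage. Most points lie along the line over the whole range, while Iglv1 (5.54% in PBMC, 8.44% in platelets) and the pseudogene Igkv4-77 (0.171% and 0.709%) lie above it.

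Among segments with at least 0.5% usage in either tissue, the 3 with the lowest ratio of platelet to PBMC usage were Igkv8-28 (0.454% against 0.794%), Igkv6-25 (1.00% against 1.51%) and Igkv9-120 (1.502% against 2.17%). The 3 with the highest ratio were Igkv4-77 (0.709% against 0.171%), Igkv4-86 (0.609% against 0.377%) and Iglv1. For Igkv4-86 O group pool 1 alone had 3.08%, and the other 14 platelet libraries had 0.229% to 0.875%. Igkv4-77 is annotated as a pseudogene and is 95.5% identical to the functional Igkv4-68, so its counts may include reads of neighbours.

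On a joint scale of all 30 libraries, light chain V levels were lower in platelets than in PBMC. Among the 87 members that passed the filter on low counts, 55 were lower and 1 was higher at an adjusted P under 0.05 (edgeR quasi-likelihood test, Benjamini-Hochberg adjustment over 16498 genes). Over all genes tested 45.2% were lower and 35.8% were higher. The median log2 difference (platelets over PBMC) was −0.71 for the members and −0.17 for all genes. With DESeq2 size factors (RLE) the members split into 53 lower and 2 higher (Igkv4-77 and Igkv4-92, the latter named after its value was seen), and the median of all genes was −0.13.

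The segment that was higher in platelets was Igkv4-77 (log2 difference 1.16 ± 0.24 SE, adjusted P = 7.67e-05, edgeR). Among the lambda segments the log2 difference was −0.04 ± 0.14 for Iglv1, −0.26 ± 0.14 for Iglv2 and −0.64 ± 0.13 for Iglv3, of which Iglv3 alone passed (adjusted P = 5.71e-05, edgeR). For Iglv1 the sign was positive with RLE size factors (0.00 to 2 decimals).

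The genes that V segments are joined to did not all move alike. Igkc, the kappa constant gene, was lower in platelets (log2 difference −0.76 ± 0.12, adjusted P = 8.08e-07, edgeR), and the joining segments Igkj1 to Igkj5 were lower by −1.28 to −1.75. The lambda constant genes were higher, with log2 differences of 0.57 ± 0.15 for Iglc1, 0.64 ± 0.13 for Iglc2 and 1.14 ± 0.11 for Iglc3 (adjusted P = 7.43e-11 for Iglc3, edgeR), and these signs held with RLE size factors. Lambda V counts per 100 lambda constant counts were 35.6 ± 5.19 in the C group of PBMC (SD, n = 5) and 16.97 ± 2.71 in the C group of platelets. The 5 PBMC values ran from 28.7 to 42.7 and the 5 platelet values from 14.4 to 21.6, with no overlap. Iglc2 and Iglc3 are close copies of each other, so the split of reads between them is uncertain.

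The first question for the tumor groups is whether the total of light chain V RNA differed. In PBMC the summed level of the 163 segments was 537, 456, 527, 364 and 456 CPM in C group pools 1 to 5, 521, 482, 396, 549 and 464 in the S group, and 369, 408, 371, 369 and 499 in the O group. The groups overlapped, with means of 468 ± 69.7, 482 ± 58.7 and 403 ± 56.1 CPM (SD, n = 5 each). As a score over members it was given no test, here and for platelets.

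In platelets the summed level was 157.5, 100.9, 125.1, 110.6 and 113.3 CPM in C group pools 1 to 5, 205.7, 133.3, 182.0, 120.6 and 285.1 in the S group, and 59.7, 65.5, 112.1, 75.1 and 104.0 in the O group. Every S pool lay above every O pool, while the S group overlapped the C group through pools 2 and 4. The means were 121 ± 21.9 (C), 185 ± 65.7 (S) and 83.3 ± 23.4 CPM (O), which gave log2 ratios of 0.61 for S over C, 1.15 for S over O and −0.54 for O over C.

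**Figure D2:**
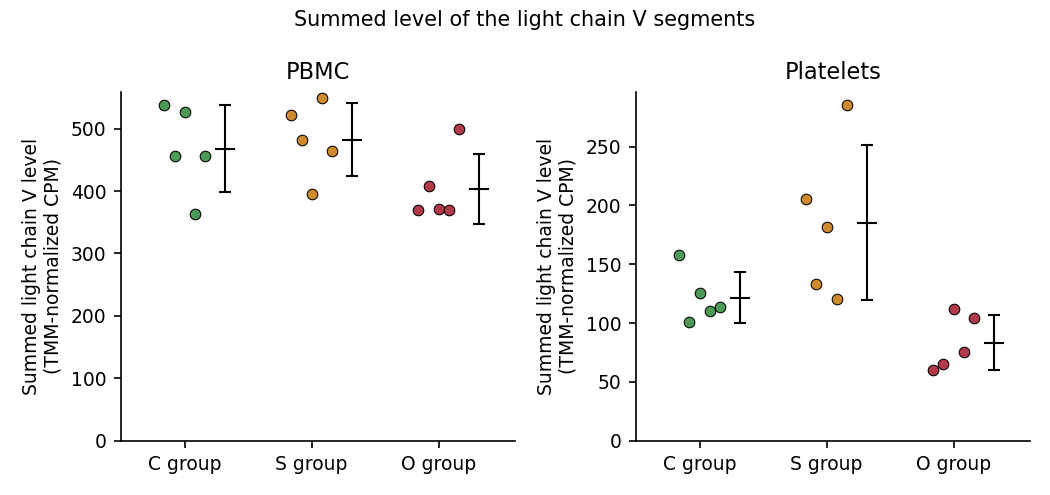
Summed level of the 163 light chain V segments in each pool (points, TMM-normalized CPM within a tissue) with group mean and SD beside them (n = 5). PBMC groups overlap, and the platelet values of the S group (120.6 to 285.1) all lie above those of the O group (59.7 to 112.1).

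The level of B cell markers moved with these totals. Light chain V counts per 100 B cell marker counts in platelets were 13.2 ± 2.12 in the C group, 15.5 ± 1.61 in the S group and 11.6 ± 0.925 in the O group. On this measure the log2 ratio was 0.24 for S over C, with overlapping pools (11.5 to 16.5 in the C group), 0.42 for S over O and −0.19 for O over C, and the S group (12.8 to 16.8) still lay above the O group (10.2 to 12.3) in every pool. In PBMC the same measure was 14.0 ± 1.46, 13.1 ± 0.884 and 12.9 ± 1.02. The part of the B cell content in the platelet differences of single segments was not tested.

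Segment by segment, PBMC of the S and C groups differed little. Of the 84 members that passed the filter, 1 was higher (Igkv1-133) and 1 lower (Igkv12-46) at an unadjusted P under 0.05, against 1.23% of all genes tested higher and 1.41% lower. With the pool number as a block 4 members passed, and in this pair of groups equally numbered pools deviated together. The shares of all genes, the adjusted values and the Igkv12-46 fold change in this paragraph come from the fit without a block. No share of all genes is given for the blocked fit. None of the 84 passed at an adjusted P under 0.05. Igkv12-46 had 7.84, 7.52, 7.73, 6.60 and 6.98 CPM in the C group and 5.81, 6.07, 5.87, 6.31 and 6.42 in the S group, so the groups did not overlap (log2 fold change −0.25 ± 0.10 SE, adjusted P = 1.00, edgeR).

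In PBMC of the S group against the O group, 10 of 79 members were higher and 0 lower at P under 0.05, against 4.43% of all genes higher and 7.8% lower. None passed with adjustment in edgeR. The smallest P values belonged to Igkv5-45 (log2 fold change 1.10 ± 0.33 SE, adjusted P = 0.304), Igkv4-79 (0.88 ± 0.30) and Iglv1 (0.47 ± 0.17), all by edgeR. Igkv5-45 (3 to 14 counts in the O group pools) and Igkv4-79 (6 to 19) passed the filter through the S group, where they are high. Their P values are therefore descriptions. Without O group pool 5 the count was 21, without S group pool 3 it was 17, and without S group pool 1 it was 5. The T cell markers, which B cells do not express, moved the same way, with 10 of 10 higher in the S group. Erythroid genes moved the other way, among them Hba-a2 (−2.64 ± 0.55) and Alas2 (−2.63 ± 0.64), named after their values were seen.

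In PBMC of the O group against the C group, 7 of 77 members were lower and 0 higher, against 4.39% of all genes lower and 7.56% higher. This comparison shares the C group pools with that of S and C. Igkv12-46 had the smallest P (log2 fold change −0.36 ± 0.10 SE, adjusted P = 0.337, edgeR), followed by Igkv5-45 (−0.95 ± 0.28) and Igkv6-32 (−0.44 ± 0.15). Igkv5-45 had 1.11, 1.26, 1.21, 1.03 and 1.30 CPM in the C group and 0.52, 0.25, 0.71, 0.59 and 0.89 in the O group, with no overlap. With 3 to 14 counts in the O group pools, it passed the filter through the C group, where it is high. Its P and non-overlap are therefore descriptions. The count rose to 18 without O group pool 5 and fell to 3 without C group pool 3. In the same comparison 10 of 10 T cell markers were lower and 7 of 7 measured erythroid genes were higher in the O group.

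Between the S and C groups of platelets, 19 of 59 members were higher and 0 lower at P under 0.05, against 4.29% of all genes higher and 2.13% lower, and the median log2 fold change was 0.72 for the members and −0.01 for all genes. Without S group pool 5, the pool with the highest B cell marker level, 7 members passed. None passed with adjustment in edgeR. Of the 59 members, 6 passed the filter here but not between O and C platelets, and 0 of these 6 were called. In this comparison 6 of 13 B cell markers were higher, among them Cd79a (log2 fold change 0.70 ± 0.22), 3 of 10 T cell markers were higher, and 21 of the 36 heavy chain V segments that passed the filter were higher.

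Igkv2-109 had the smallest P between S and C platelets (log2 fold change 1.09 ± 0.29 SE, adjusted P = 0.746, edgeR). Its levels were 1.07, 0.68, 1.31, 0.66 and 1.16 CPM in the C group, 2.12, 2.31, 2.43, 1.91 and 1.82 in the S group, and 0.54, 0.23, 0.67, 0.81 and 0.49 in the O group. Every S pool lay above every C and O pool. The nearest other member, the pseudogene Igkv2-116, was 95.9% identical. In PBMC the same gene ran from 3.37 to 6.91 CPM in the S group, 4.24 to 6.68 in the C group and 4.25 to 6.99 in the O group, with full overlap.

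Igkv4-59 (log2 fold change 1.20 ± 0.36) and Igkv8-24 (1.14 ± 0.39) had the next smallest P between S and C platelets. Igkv4-59 had 1.19, 0.98, 0.63, 2.32 and 0.90 CPM in the C group and 3.19, 2.52, 3.01, 1.74 and 3.49 in the S group, with an overlap of 1 pool on each side. Igkv1-117, the most used kappa segment, was also higher (1.02 ± 0.37 SE, adjusted P = 0.746, edgeR), with 11.15, 3.72, 3.41, 6.36 and 4.97 CPM in the C group and 14.40, 7.13, 12.20, 5.55 and 20.90 in the S group.

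The 19 segments that were higher in S platelets were all kappa. So were all members tested there except the 3 lambda segments, so this count alone does not set the loci apart. The lambda segments had log2 fold changes of 0.03 ± 0.19 (Iglv1), 0.18 ± 0.24 (Iglv2) and 0.23 ± 0.27 (Iglv3), none past the threshold. Iglv1 had 12.46, 11.59, 17.27, 10.40 and 10.52 CPM in the C group and 12.64, 12.65, 12.64, 9.11 and 17.04 in the S group, which overlapped throughout. Whether a kappa and a lambda segment differed in their response was not tested. The constant genes gave 0 of 4 past the threshold, with 0.23 ± 0.20 for Igkc, −0.40 ± 0.23 for Iglc1, −0.20 ± 0.17 for Iglc2 and −0.07 ± 0.17 for Iglc3, while Igkj2 (1.53 ± 0.59), Igkj3 (1.68 ± 0.58) and Igkj4 (1.44 ± 0.65) were higher.

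Between S and O platelets, 33 of 60 members were higher and 0 lower, against 7.23% of all genes higher and 6.67% lower. This comparison shares the S group pools with the one before, so the counts are not independent of each other. The median log2 fold change was 1.13 for the members and −0.01 for all genes. Again none passed with adjustment in edgeR (adjusted P of 0.225 for those with the smallest P), whereas DESeq2 passed 13, all higher, against 1.5% of all genes higher. In the S group 10 of 13 B cell markers and 9 of 10 T cell markers were higher, and 6 of 7 neutrophil markers were lower.

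Igkv2-109 led again (log2 fold change 1.92 ± 0.35 SE, adjusted P = 0.225, edgeR), with the levels given above. Igkv14-100 (1.67 ± 0.37) had 0.90, 1.05, 0.88, 1.04 and 1.09 CPM in the S group and 0.13, 0.23, 0.45, 0.35 and 0.31 in the O group. Igkv3-7 (2.10 ± 0.47) had 1.97, 0.98, 2.06, 1.28 and 3.49 CPM in the S group and 0.13, 0.45, 0.60, 0.25 and 0.64 in the O group. In both segments the groups did not overlap. Igkv14-100 is among the 7 members that passed the filter here but not between O and C platelets, so it passed through the S group, where it is high, and its P and non-overlap are descriptions. Of these 7 members 2 were higher, and of the other 53 members 31. A member could pass between O and C through the C group, so those 53 are not free of this effect. Igkv2-109 (4, 4, 9, 16 and 16 counts in the O group pools) and Igkv3-7 (1, 8, 8, 5 and 21) also needed the S group to pass here. Their P values and non-overlap between S and O are descriptions too. Igkc was higher as well (0.95 ± 0.27), whereas the 3 lambda constant genes had log2 fold changes of 0.32 to 0.52 and did not pass.

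Between O and C platelets, 7 of 55 members were lower and 0 higher, against 2.17% of all genes lower and 2.61% higher. Igkv3-2 (log2 fold change −1.16 ± 0.40 SE), Igkv17-127 (−0.94 ± 0.37) and Igkv6-15 (−0.81 ± 0.35) had the smallest P by edgeR, with an adjusted P of 0.910. Igkv3-2 had 3.26, 1.03, 1.02, 1.99 and 1.94 CPM in the C group and 0.54, 0.90, 0.97, 0.56 and 1.07 in the O group, which overlapped through a single O pool. The count was 1 without C group pool 1 or pool 2, and 2 without O group pool 2. In the same comparison 6 of 13 B cell markers, 4 of 10 T cell markers, Igkc (−0.75 ± 0.26) and Iglc1 (−0.94 ± 0.30) were lower, and 4 of 7 neutrophil markers were higher. The part of other cell types in the platelet counts of members was not tested.

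**Figure D3:**
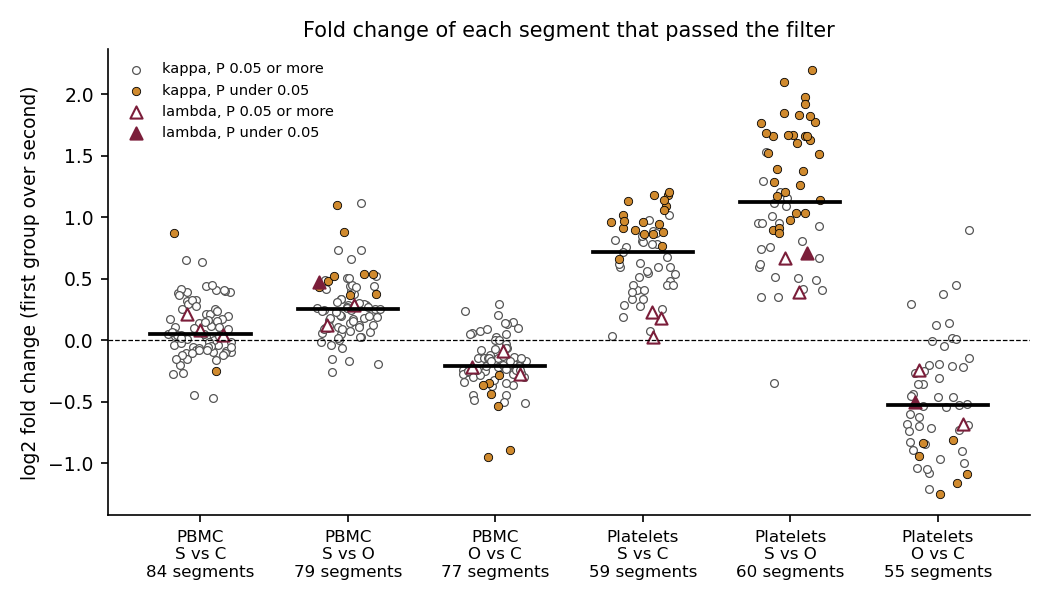
log2 fold change (y axis, first group over second) of each light chain V segment that passed the count filter, in 3 comparisons of PBMC and 3 of platelets. Circles are kappa and triangles lambda segments, filled where P was under 0.05 (edgeR), and the bars are medians, which run from −0.52 (O vs C) to 1.13 (S vs O) in platelets and from −0.21 to 0.25 in PBMC.

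The difference between tissues in each contrast was tested in a joint fit of 6 tissue and group means. This fit took the 30 libraries as independent, although the tissues can share animals (only the O group has equal pool sizes in both), and between O group libraries of equal number the deviations correlated at 0.0754 to 0.694. For S over C, 11 of 87 members responded more in platelets and 0 less at P under 0.05, against 3.33% and 2.05% of all genes. For S over O the counts were 22 and 0, against 5.86% and 7.75%, and for O over C they were 1 and 1, against 3.89% and 2.71%. None passed with adjustment in edgeR. Igkv2-109 had the smallest P in the first 2 contrasts, with an extra log2 change in platelets of 1.07 ± 0.34 SE for S over C (adjusted P = 0.760) and 1.74 ± 0.36 for S over O (adjusted P = 0.120).

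Evenness of usage was described by the effective number of segments, the inverse Simpson index corrected for the number of counts, which gives the number of equally used segments that would have the same concentration. In PBMC it was 40.4, 41.4, 41.3, 44.3 and 38.6 in C group pools 1 to 5, 39.0, 40.9, 41.0, 42.4 and 40.1 in the S group, and 39.9, 41.9, 40.6, 42.4 and 39.2 in the O group. The means were 41.2 ± 2.09, 40.7 ± 1.23 and 40.8 ± 1.33 (SD, n = 5 each), and the groups overlapped throughout.

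In platelets the effective number was 34.9, 31.6, 28.0, 33.6 and 34.7 in the C group, 39.1, 37.3, 42.1, 38.2 and 37.7 in the S group, and 34.1, 31.5, 35.3, 31.99 and 29.7 in the O group. Every S pool lay above every C and O pool. Within the C group these values moved with pool size. Its pools of 5 mice (pools 2 and 3) had its lowest numbers, and its pools of 10 mice had 33.6 to 34.9. The S group pools, all of 10 mice by the labels, had 37.3 to 42.1. The O group showed no such order. Its pools of 3 mice had 34.1 and 31.99, the pool of 4 had 31.5, and the pools of 5 had 35.3 and 29.7. The part of pool size in the result was not tested. The means were 32.6 ± 2.86, 38.9 ± 1.93 and 32.5 ± 2.18, so the S group was 6.29 above the C group and 6.34 above the O group, while O and C differed by −0.05. With the exponential of the Shannon entropy in its place, the O group (47.3 ± 4.34) lay below the C group (51.3 ± 1.44), a difference of −4.03. Without O group pool 1, the pool with the fewest V counts, this difference was −2.21. The Shannon measure weights rare segments more and, unlike the first one, is not corrected for the number of counts. V counts averaged 1598 in the O group, 2202 in the C group and 3327 in the S group. The part of this in the Shannon values was not tested. The 10 most used segments of a library held 41.2% of usage on average in S platelets, 44.7% in the C group and 46.0% in the O group.

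This gap was not present among kappa segments taken alone. With the lambda segments left out (a measure added after the first values were seen), the effective number in platelets was 42.8 ± 4.33 in the C group, 41.6 ± 3.17 in the S group and 40.9 ± 6.26 in the O group, with overlap throughout. The difference of S over C was −1.20 and that of S over O was 0.71. The sign of the latter rested on single pools: it was −1.40 without O group pool 1, −0.11 without S group pool 2 and 2.86 without O group pool 4. Leaving out single pools moved the difference of S over C between −2.93 (without C group pool 1) and −0.27 (without C group pool 5). With Iglv1 alone left out, S exceeded C by 2.50 (1.68 to 3.37 with single pools left out) and O by 4.98 (4.10 to 5.85), and the S group (38.1 to 44.9) then overlapped both the C group (37.2 to 40.8) and the O group (33.1 to 38.2).

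**Figure D4:**
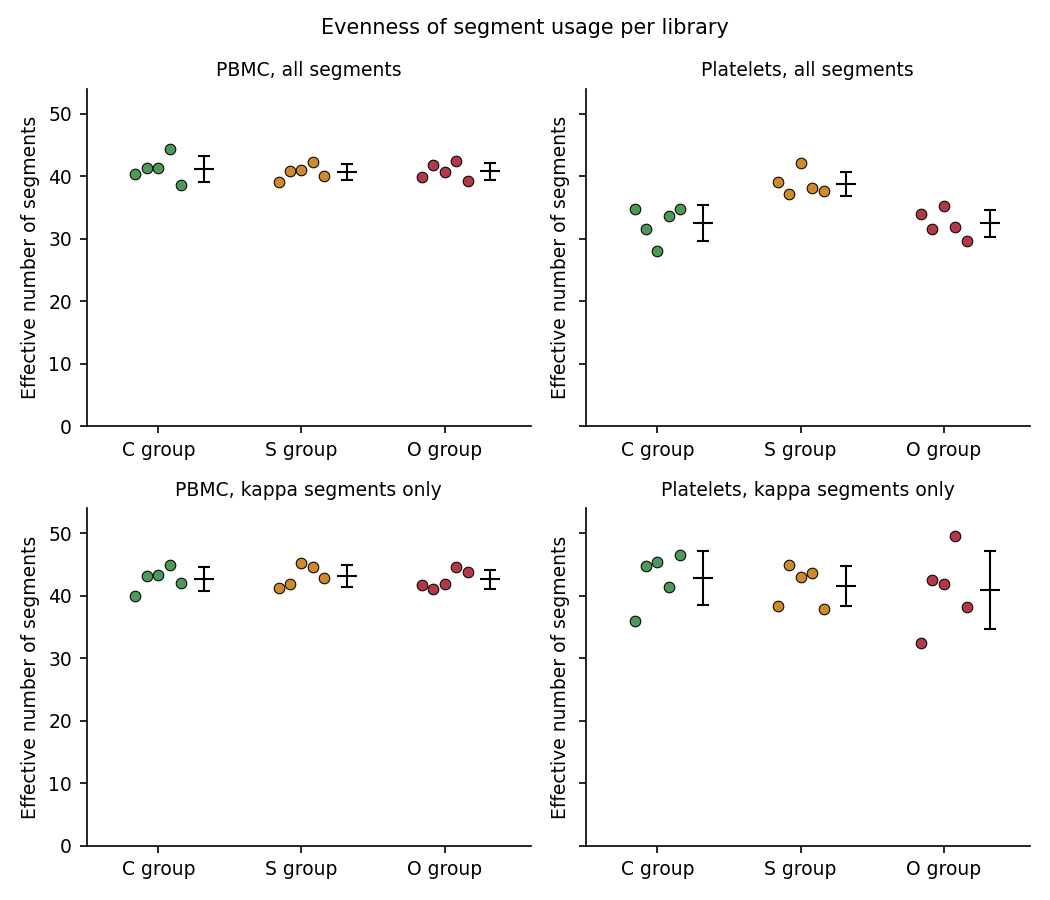
Effective number of segments in each pool (points) with mean and SD (n = 5), over all 163 segments in the upper panels and over the 160 kappa segments in the lower ones. In platelets S group pools (37.3 to 42.1) lie above C (28.0 to 34.9) and O (29.7 to 35.3) over all segments, and the groups overlap over kappa segments.

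The lambda share of usage differed between the platelet groups. It was 15.4%, 22.1%, 23.9%, 20.1% and 20.3% in the C group, 12.7%, 17.5%, 11.98%, 17.5% and 14.5% in the S group, and 14.0%, 22.4%, 19.5%, 23.9% and 20.999% in the O group. The S group was the lowest on average (14.8% ± 2.61 against 20.4% ± 3.16 and 20.2% ± 3.80), but its pools overlapped C group pool 1 and O group pool 1. Within the C group the pools of 5 mice had the highest shares (22.1% and 23.9%), while the O group pools of 3 mice had 14.0% and 23.9%. In PBMC the shares ran from 12.5% to 16.7% in the C group, 13.9% to 15.4% in the S group and 12.4% to 16.1% in the O group, so S platelets lay near the PBMC values.

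Iglv1 was the lambda segment with the largest difference of means between C and S platelets. Its usage was 7.56%, 10.9%, 13.1%, 8.91% and 8.84% in C platelets, 5.86%, 9.02%, 6.61%, 7.20% and 5.71% in S platelets, and 4.04%, 9.89%, 7.88%, 9.92% and 11.2% in O platelets. It was the most used segment in 5 of 5 C pools, 3 of 5 S pools and 4 of 5 O pools. In the other S pools Igkv1-117 came first, and in O group pool 1 Igkv1-135.

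**Figure D5:**
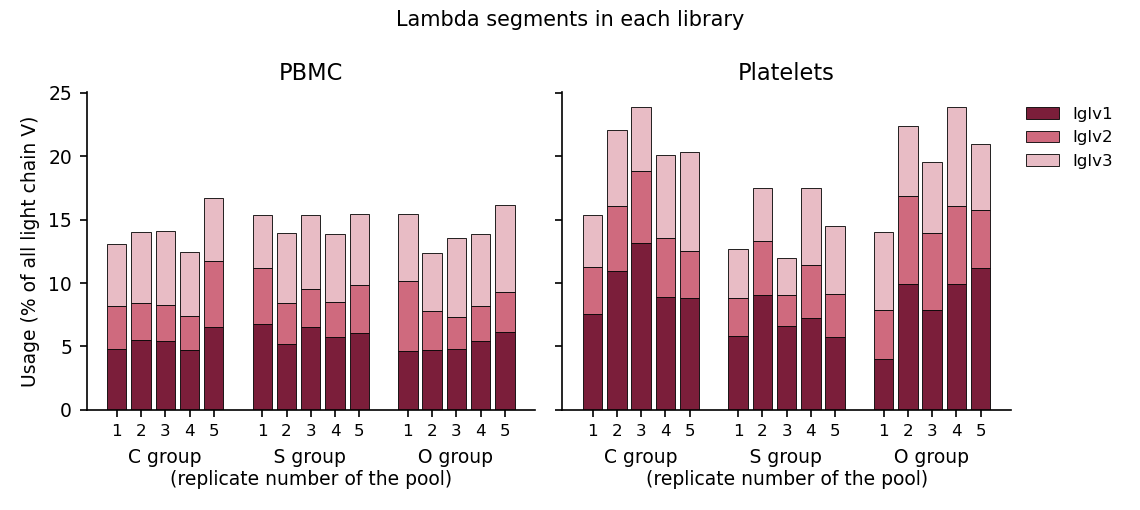
Usage of Iglv1, Iglv2 and Iglv3, stacked, in each library (% of all light chain V usage, with pools numbered by replicate within each group). In platelets the stack is 11.98% to 17.5% in the S group, against 15.4% to 23.9% in the C group and 14.0% to 23.9% in the O group, and PBMC stacks lie between 12.4% and 16.7%.

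The summed levels show where the share moved. Kappa segments summed to 132.7, 78.0, 94.4, 87.7 and 89.7 CPM in C platelets and to 179.0, 109.3, 159.5, 99.1 and 242.8 in S platelets. Lambda segments summed to 24.8, 22.9, 30.7, 22.9 and 23.7 CPM in C platelets and to 26.7, 24.05, 22.5, 21.6 and 42.3 in S platelets. Kappa means were 96.5 and 158 CPM, and lambda means 25.01 and 27.4 CPM. In O platelets both were lower, at 65.9 ± 18.4 for kappa and 17.4 ± 5.795 for lambda.

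V counts were also set against the constant genes of their own locus. Kappa V counts per 100 Igkc counts in platelets were 52.0 ± 9.35 in the C group, 69.6 ± 10.8 in the S group and 59.8 ± 6.61 in the O group, with S group pools from 59.1 to 82.3 and C group pools from 39.9 to 63.2. In PBMC the ratio was 57.9 ± 0.735, 55.3 ± 4.22 and 58.5 ± 2.25. Lambda V counts per 100 lambda constant counts in platelets were 16.97, 20.7 and 17.5 on average in the C, S and O groups, with S group pool 5 at 30.7 and the other 14 pools from 14.4 to 21.6.

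Similarity of whole usage profiles was measured with the Morisita overlap, which is 1 for identical profiles. PBMC libraries were close to each other (median 0.982 over 105 pairs, lowest 0.953), and platelet libraries less so (median 0.935, lowest 0.782). Platelet pairs of the same group had a median of 0.942 and pairs of different groups 0.928, with S against O the lowest at 0.890. The pairs of O with C had a median of 0.948, beside 0.936 within the C group and 0.938 within the O group. O group pool 1, which had the fewest V counts, was the platelet library least like the others (median 0.866). Within the same group, platelet and PBMC libraries with the same pool number were no closer (median 0.931, 15 pairs) than those with different numbers (0.942, 60 pairs). For equal numbers the medians were 0.931 in the C group, 0.952 in the S group and 0.907 in the O group.

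Along the kappa locus, usage was lower between 1000 and 2000 kb from Igkj1 than on either side. Segments within 500 kb of Igkj1, the first joining segment, held 21.5% of kappa usage in PBMC and 22.5% in platelets, and those 500 to 1000 kb away (21 functional) 18.1% and 16.7%. Segments 2000 to 2500 kb away (12 functional) held 19.6% and 17.9%, and segments more than 2500 kb away, a bin up to 3500 kb and so wider than the others, held 21.8% and 20.1%. Segments 1000 to 1500 kb away (17 functional) held 9.97% and 11.4%, and those 1500 to 2000 kb away (14 functional) 9.05% and 11.3%, against 19 functional segments in the nearest bin and 17 in the farthest. Among kappa families, Igkv1 (14.5% in PBMC, 13.4% in platelets), Igkv6 (13.0%, 13.1%) and Igkv4 (11.4%, 13.6%) were the most used. The 3 lambda segments together held 14.4% and 18.4%, in platelets more than any kappa family.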

How the data were processed

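RNA of pooled mice was sequenced from poly-A selected, unstranded libraries. The authors aligned reads with HISAT2 2.0.5, made the deposited counts per gene with featureCounts 1.5.0-p3 and ran DESeq2 1.16.1, per the labels and the methods. The strand setting and the handling of reads that match several genes are not given in the sources used here, and either could shift counts between near-identical segments. The deposited tables hold raw counts for 30 libraries and no other column of samples. The processing notes name mm9, but 643 of 664 gene positions in the study's own tables, with 18 of 18 members among them, equal GRCm38 (GENCODE M21), which is the build used for positions and sequences. Symbols were found for 54495 of 54532 gene identifiers.

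Platelet samples carry a cell type tag that reads PBMC and were assigned by title and source name. For the platelet S group the methods give other pool sizes than the labels. The study calls the 5 pools of a group independent experiments, so P values measure the spread between pools, and the tissues can share animals.

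Counts were tested with edgeR 4.0.16 (R 4.3.3: filterByExpr, TMM, quasi-likelihood, two-sided) over all genes of a tissue and pair of groups, at an unadjusted P of 0.05, with Benjamini-Hochberg values beside it. Standard errors are the log2 fold change over the square root of F. Tissues were compared on the joint table with the group as a covariate. CPM values are scaled within a tissue. Alternatives were RLE size factors, DESeq2 1.42.0, no filter, a replicate block, a joint fit of 3 groups and leaving out each pool. Named were the 10 most used segments per tissue, all lambda segments, the 3 smallest P per comparison and the 3 largest usage ratios each way between tissues, 28 in all, and Igkv4-92, Igkv4-68, Igkv2-116, Cd79a and Ms4a1 in passing. Identity and codons were read from GENCODE M21 transcripts with Biopython 1.88. Scripts were tested on simulated data. The members and gene lists were chosen with earlier results of these data known. Equally numbered pools of PBMC S and C deviated together (every correlation of 0.333 to 0.601 over genes), so that the blocked value is printed there. Counting error and pool differences both enter the spread, and the smallest library held 444 V counts.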

Additional observations from a re-analysis of the deposited data

Results flagged for a closer look

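Among 165 sets of 5 pools tested for a value standing apart from the other 4 (Dixon's ratio, which flags about 1 set in 20 by chance), 13 stood out. In PBMC these were Iglv2 usage of 5.22% in C group pool 5 and 5.56% in O group pool 1, Iglv3 usage of 4.15% in S group pool 1, and an Iglv1 level of 32.2 CPM in O group pool 5. In platelets of the C group they were Igkv1-110 usage of 6.00% and an Igkv6-15 level of 4.27 CPM in pool 1, Igkv4-86 usage of 0.875% in pool 2, Igkv10-96 usage of 5.19% in pool 4 and an Igkv8-24 level of 1.61 CPM in pool 5. In platelets of the S group they were Igkv10-96 usage of 4.23% in pool 2 and a share of the 10 most used segments of 38.5% in pool 3. In platelets of the O group pool 1 had Igkv4-86 usage of 3.08% and 51.6 V counts per 100 light chain constant counts, and this pool had the fewest V counts.

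Of the 28 named segments, 7 for S over C, 14 for S over O and 2 for O over C had a response that differed between platelets and PBMC by the interaction test (edgeR, unadjusted P under 0.05, none with adjustment). Over all genes the shares higher and lower were 3.33% and 2.05%, 5.86% and 7.75%, and 3.89% and 2.71%. Several were named for a small P in comparisons of the same libraries, so these tests are not independent of the choice. The extra log2 change in platelets for S over C was 1.40 for Igkv1-110, 0.93 for Igkv1-117, 0.97 for Igkv19-93, 1.07 for Igkv2-109, 0.79 for Igkv6-23, 0.86 for Igkv6-32 and 1.02 for Igkv8-24. For S over O it was 1.85 for Igkv1-110, 1.38 for Igkv1-117, 1.40 for Igkv12-46, 1.25 for Igkv14-100, 1.20 for Igkv17-127, 1.74 for Igkv2-109, 1.44 for Igkv3-2 and 1.42 for Igkv3-7. It was also 0.95 for Igkv6-15, 0.99 for Igkv6-23, 1.38 for Igkv6-25, 1.13 for Igkv6-32, 1.40 for Igkv8-24 and 1.13 for Igkv9-120. For O over C it was −2.48 for Igkv1-133 and 1.31 for Igkv4-77.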

How the results depend on the processing

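Of the values recomputed under other settings than leaving out a pool, 81 stayed within 1.5 times of the count or within 1 SD, and 12 moved. The number of segments past P under 0.05 between S and C PBMC was 2, and became 9 with no filter, 4 with the replicate block and 1 in the joint fit of 3 groups. Between O and C platelets it was 7, and 11 with DESeq2. Per B cell marker count, the log2 ratio of summed V levels was 0.021 for S over O in PBMC, and 0.42 for S over O and −0.19 for O over C in platelets. The difference in effective number between S and C platelets was 2.50 without Iglv1 and −1.20 over kappa segments. Between S and O platelets it was 8.62 with the Shannon index and 0.71 over kappa segments, and between O and C platelets −4.03 with the Shannon index. That index is not corrected for the number of counts. Kappa segments alone and levels per B cell marker count were added after the data were seen. The cause was not tested.

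Leaving out single pools gave 0 to 6 segments for S against C, 5 to 21 for S against O and 3 to 18 for O against C in PBMC, and 7 to 26, 26 to 39 and 1 to 9 in platelets. In PBMC S against C the count of 2 became 6 without C group pool 1, 0 without C group pool 2, 1 without C group pool 4, 4 without C group pool 5, 5 without S group pool 2 and 4 without S group pool 3 or 5. In PBMC S against O the count of 10 also became 5 without S group pool 4 and 6 without O group pool 4. In PBMC O against C the count of 7 also became 4 without C group pool 1 and 13 without C group pool 4. Outside PBMC S against C, not every correlation between equally numbered pools was over 0.1. All 5 were positive in PBMC S against O (0.08 to 0.417), in PBMC O against C (0.031 to 0.479) and between the tissues in the O group (0.0754 to 0.694), while the platelet comparisons and the tissues in the C and S groups held negative ones (−0.261 to 0.506). The replicate block moved no other count by over 1.5 times. Few V counts in platelets limit single segments.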

Other observations

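Heavy chain V segments, which pair with light chains in the antibody but lie on another chromosome, gave values of the same sign in platelets. Of 185 segments, 36 passed the filter between S and C platelets, and 21 were higher and 0 lower (edgeR, unadjusted P under 0.05), with a median log2 fold change of 1.09, against 4.29% of all genes higher. Between S and O platelets 22 of 37 were higher and 0 lower (median 1.47), against 7.23% of all genes higher, and between O and C platelets 1 of 23 was higher and 1 lower (median −0.55), against 2.61% and 2.17% of all genes. The 13 segments tested between S and C and the 14 tested between S and O that did not pass between O and C passed through the S group, which favours higher calls among them (6 and 7 were higher). Of the other 23 segments 15 were higher in each of the comparisons, which share the S group pools. A segment could pass between O and C through 1 of those groups, so these 23 are not free of this effect. In PBMC the counts were 0 higher and 2 lower of 79 for S against C, 2 higher and 0 lower of 77 for S against O, and 1 higher and 5 lower of 76 for O against C. Over all genes in PBMC the shares higher and lower were 1.23% and 1.41%, 4.43% and 7.8%, and 7.56% and 4.39%. None passed with adjustment.

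Light chain joining and heavy chain constant genes were measured beside them. The shares of all genes higher and lower in platelets were 4.29% and 2.13% for S against C, 7.23% and 6.67% for S against O and 2.61% and 2.17% for O against C. In S against C platelets 3 of 5 joining segments that passed the filter were higher, and 1 of 7 heavy chain constant genes was lower (Ighg1, log2 fold change −1.60) and 0 higher. In S against O platelets 1 of 5 joining segments (Igkj2, 2.09 ± 0.70) and 2 of 7 heavy chain constant genes were higher (Igha, 2.46 ± 0.54, and Ighm, 0.68 ± 0.26) and 0 lower, by edgeR and named after their values were seen. In O against C platelets 1 of 5 joining segments and 3 of 7 heavy chain constant genes were lower. Plasma cell markers gave 1 of 7 higher and 0 lower in S against C platelets, 3 of 8 higher and 0 lower in S against O, and 0 higher and 2 of 7 lower in O against C.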
